A study of Physcomitrium patens with 6 samples.

Results

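The genes described here lie on unplaced scaffolds of the *P. patens* genome, the assembled pieces that were not joined to a numbered chromosome. They were selected on 2 properties of the count table, an identifier that starts with Pp3 but not with Pp3c and at least 1 count in any of the 6 libraries. Of 658 such rows 64 held a count, and these 64 genes are the set described, among 23239 genes with a count and 31967 genes in all. The remaining 594 rows had no count in any library, and 9 of the 64 genes stood at the threshold with 1 count each.

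PolyA RNA was sequenced for *Ppddm1* and for wild type, in each case from protonema of the Grandsen strain (Grandsen2004 in the methods) aged 7 days, with 3 libraries per genotype. The labels put replicates 1 and 2 in batch 1 and replicate 3 in batch 2. The mutant comes from 1 knockout plant, in which a Zeocin resistance cassette replaced the coding region of PpDDM1 by homologous recombination, and wild type carries the intact gene. Nothing in the methods says that the libraries came from separate cultures, so p-values cover just the scatter among these libraries, and that scatter may be technical. The identifiers are not paired with gene names in the sources used here, so neither the function of a gene nor the tissue label could be checked against markers.

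In plants, DDM1 is a chromatin remodeler of the Snf2 family that gives DNA methyltransferases access to nucleosomal DNA, above all in the heterochromatin of transposons. Pieces of a genome assembly often stay unplaced because repeats surround them, and repeats are the sequences that DDM1 is known to keep methylated. Whether the scaffolds here are rich in repeats was not analysed, since no genome sequence was used, and for the same reason no sequence of these genes is printed.

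The libraries held 3767473, 4105086 and 10536543 counts in *Ppddm1* and 2784259, 4272928 and 6079718 counts in wild type. CPM, used for all levels here, scales a count to a library total of 1000000. It is not scaled for gene length, which the table does not give, so a difference in level between genes includes their length. PpDDM1 (Pp3c17_19520) was at 1.03 ± 0.0462 CPM in *Ppddm1* and 19.9 ± 5.88 CPM in wild type (SD, n = 3 each), as the labels require. Reads that matched several places had been assigned at random, so the counts of a gene with a near-identical copy elsewhere are uncertain.

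Most genes annotated on unplaced scaffolds had no read in protonema at this depth. A count was found for 9.73% of the unplaced genes, against 74.0% of the 31309 genes on the numbered chromosomes. Among the 27 chromosomes this share ran between 69.7% on chromosome 20 and 81.2% on chromosome 27, so that every chromosome stood far above the scaffolds. A gene with no count in any of the 31546007 counts of the table may still be expressed at up to 0.0951 CPM, a limit of 3 counts that covers counting error only. This limit pools both genotypes and is higher for either one alone. It also assumes that reads of the gene could be aligned and counted. These shares describe the table and carry no test, since detection was part of the choice of genes.

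Genes without a count were uneven among scaffolds and were most frequent on those with many genes. The unplaced genes came from 108 scaffolds with a median of 2 genes, and 63 of the scaffolds had no gene with a count. The 12 scaffolds with 10 or more genes held 462 genes, or 70.2% of the unplaced rows, and 4 of these genes (0.866%) had a count. The 96 smaller scaffolds held 196 genes, of which 60 (30.6%) had a count. The split at 10 genes was chosen after the values had been seen. With the split at 5 genes 17 of 504 genes on the larger scaffolds were detected and 47 of 154 on the smaller, and with the split at 20 genes 3 of 407 and 61 of 251.

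Scaffold 30 had the most genes, 124, and no count in any of the 6 libraries. Scaffold 34 had 80 genes and 1 count in all, in *Ppddm1* replicate 2. Scaffold 32 had 73 genes, scaffold 46 had 40 and scaffold 58 had 35, all without a count, and scaffold 42 with 35 genes had 2 counts. In all, 9 of the 12 gene-rich scaffolds were empty over their 337 genes, and the 12 together collected 26 counts. On the numbered chromosomes the longest stretch of consecutive identifiers without a count was 17 genes, on chromosome 7, and 14 stretches reached 10 genes. No stretch without a count on the chromosomes was therefore as long as scaffolds 30, 32 or 46. Whether reads could be aligned and counted on these scaffolds was not tested.

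**Figure D1:**
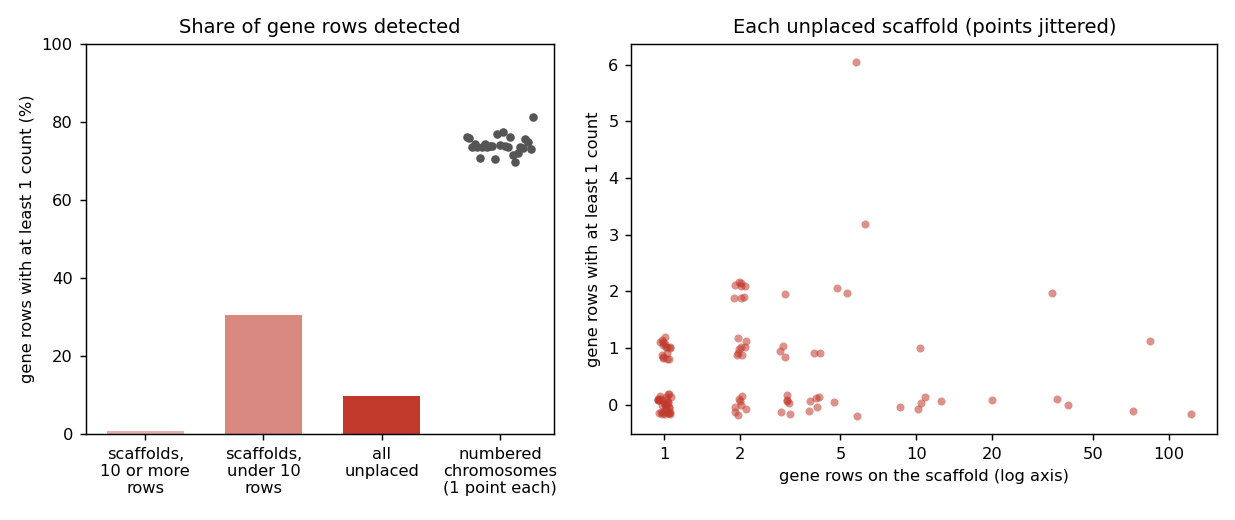
Left, percentage of gene rows with at least 1 count over the 6 libraries, for unplaced scaffolds with 10 or more gene rows, those with under 10, all unplaced genes and each of the 27 numbered chromosomes. Right, each of the 108 unplaced scaffolds by its gene rows (log axis) and its rows with a count, with the points jittered. The bars stand at 0.866%, 30.6% and 9.73%, the chromosomes lie between 69.7% and 81.2%, and the scaffold with 124 gene rows has no detected gene.

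Per library, the number of genes detected differed little between the genotypes. The *Ppddm1* libraries detected 44, 45 and 49 unplaced genes and the wild type libraries 48, 46 and 51. With every library thinned to the smallest total, the expected numbers were 42.1, 43.1 and 43.5 genes in *Ppddm1* and 48.0, 44.2 and 46.5 in wild type. At equal depth the genotypes thus did not overlap, but only narrowly, with 43.5 next to 44.2, and the difference was not tested. The same expectation for chromosomal genes gave 19716, 20115 and 20004 genes in *Ppddm1* and 19792, 20061 and 19770 in wild type, with overlap. Of the 64 unplaced genes with a count, 4 had reads in *Ppddm1* alone, none of them with more than 1 count. Another 10 genes had reads in wild type alone, 5 with 1 count and 5 with 3 to 6 counts. Both sets are at or near the limit of 3 counts over a genotype, so no fold is given for them. On the chromosomes, of 23175 genes with a count, 1307 were read in *Ppddm1* alone and 693 in wild type alone, with up to 160 and 25 counts. The *Ppddm1* libraries together were deeper, with 18409102 counts against 13136905 in wild type, and these numbers are not scaled for depth.

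The 64 detected genes were mostly low, with a small group at a high level. Their median level was 1.45 CPM in *Ppddm1* and 1.99 CPM in wild type, against 14.3 CPM and 14.2 CPM for the detected chromosomal genes. A mean of at least 10 CPM over the libraries was reached by 24 genes, which held 97.5% of all unplaced counts, 11 genes lay between 1 and 10 CPM and 29 below 1 CPM. Of the 64, 36 had a count in every library (56.2%, against 79.4% of detected chromosomal genes). In wild type 21 of the 64 stood above the median detected chromosomal gene, a smaller share than that of the detected chromosomal genes themselves.

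Summed over all unplaced genes, the level differed between the genotypes by less than the spread of the libraries. The sum was 1496, 1722 and 1729 CPM in *Ppddm1* and 1649, 1574 and 1523 CPM in wild type, with overlap. The means were 1649 ± 132 CPM in *Ppddm1* and 1582 ± 63.5 CPM in wild type (SD, n = 3 each), a ratio of 1.04. Unplaced genes thus held 0.166% of gene counts in *Ppddm1* and 0.159% in wild type, while they make up 2.06% of the gene rows. The 6 most abundant genes held 62.8% of the counts. Without them the sum was 645, 606 and 615 CPM in *Ppddm1* and 650, 586 and 569 CPM in wild type. The low value of *Ppddm1* replicate 1 came from the 6 abundant genes, which summed to 850 CPM there and to 1116 and 1114 CPM in replicates 2 and 3.

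The difference between genotypes was tested per gene with edgeR's quasi-likelihood test over the 20647 genes and transposable elements (TEs) that reached 10 counts in the 6 libraries summed. Calls needed both a 2-fold change or more and a Benjamini-Hochberg adjusted p under 0.05, with the adjustment made over all of these features. This minimum left 42 of the 64 unplaced genes in the test. The other 22 had 9 counts or fewer.

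No unplaced gene was called in *Ppddm1* in either direction by edgeR. The background is 3.15% of all tested features called, 0.741% higher and 2.41% lower. DESeq2 and limma-voom called none of the 42 either, where they called 2.85% and 3.09% of features. At an unadjusted p under 0.05 edgeR gave 7 of the 42 genes (16.7%, 4 higher and 3 lower), beside 18.0% of all features, and at an adjusted p under 0.05 without the fold limit 1 gene (2.38%), beside 5.74%. By each of these measures the share of the 42 genes was near or under the background.

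Beside chromosomal genes of the same wild type level, the count of 0 is close to what their share would give. The 42 genes fell in 6 classes of mean wild type level, with 4 genes up to 0.5 CPM, 6 genes up to 2, 7 genes up to 8, 12 genes up to 32, 9 genes in the next class and 4 genes in the highest. In these classes between 1.79% and 4.49% of the 19550 chromosomal genes were called. Weighted by the number of unplaced genes in each class this is 2.95%, or 1.24 of 42 genes. With so few genes expected, a count of 0 says nothing particular of the unplaced genes.

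The signed changes were also close at the median, while the median absolute size was somewhat larger in the unplaced genes, though not in every level class. Log2 fold changes had a median of -0.02 in the 42 unplaced genes, 0.02 for chromosomal genes at matched level and 0.01 for all tested features. There were 20 genes with a positive and 22 with a negative value. The median absolute log2 fold change was 0.30 for the unplaced genes and 0.24 at matched level, and the median edgeR dispersion, which measures the scatter between libraries of a genotype beyond counting error, was 0.0252 and 0.0229. In 8 of the 42 genes (19.0%) the genotypes did not overlap, 5 higher and 3 lower in *Ppddm1*, beside 23.3% of all features and 22.7% at matched level.

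**Figure D2:**
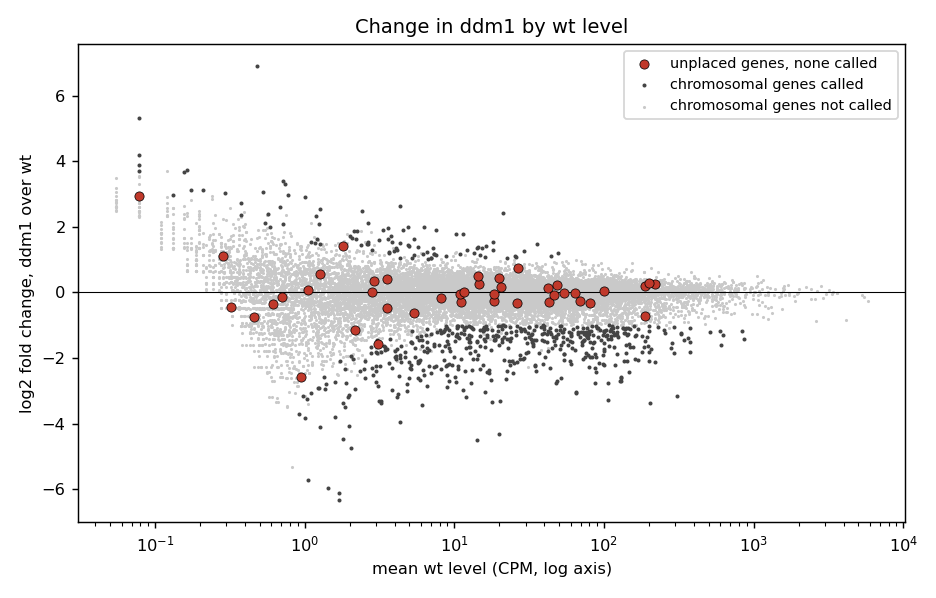
Log2 fold change of *Ppddm1* over wild type by mean wild type level in CPM (log axis) for the 42 tested unplaced genes (red), for chromosomal genes called (dark) and for those not called (grey). Chromosomal genes with no wild type count are not drawn. The red points have a median of -0.02 and none was called, and the 6 beyond 1 in either direction are all genes of 15 to 111 counts.

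Precision depended on the level. The 25 genes with at least 200 counts had log2 fold changes between -0.72 and 0.75 with a median standard error of 0.16, while the other 17 had a median standard error of 0.58. All 6 genes with a fitted change of 2-fold or more, 3 in each direction, had between 15 and 111 counts over the 6 libraries. A 2-fold change of a gene at that depth may go uncalled.

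**Figure D3:**
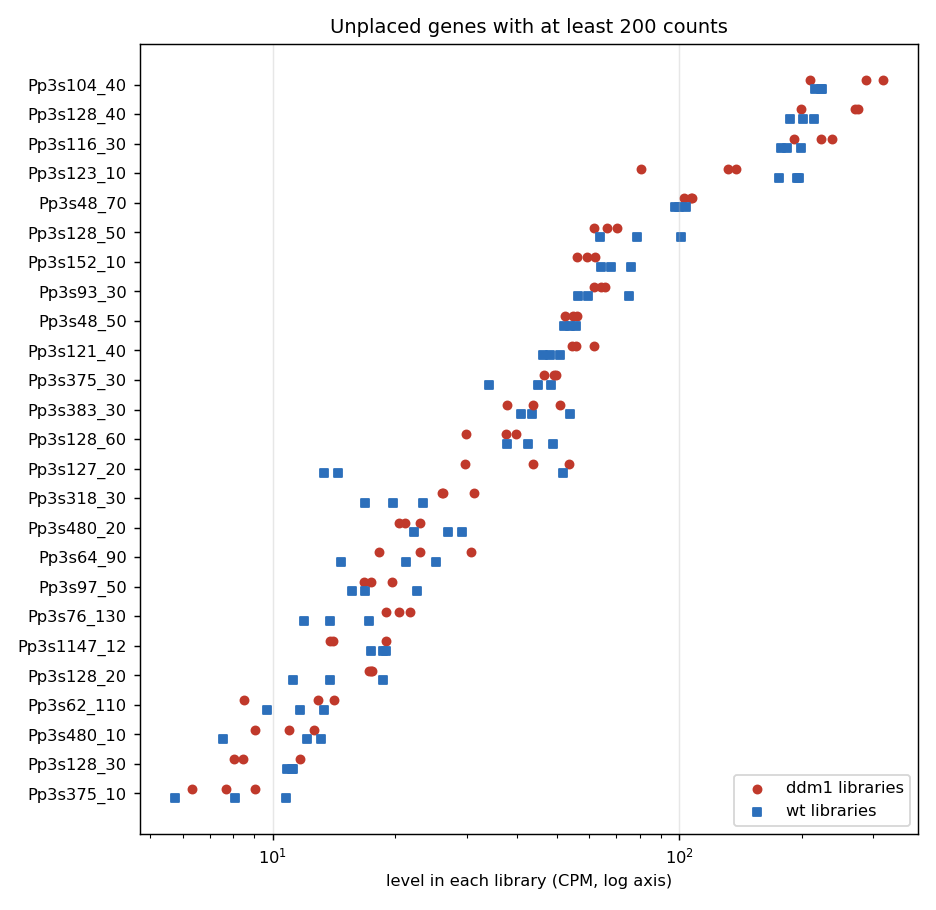
Level in CPM (log axis) in each *Ppddm1* library (circles) and each wild type library (squares) for the 25 unplaced genes with at least 200 counts, ordered by mean level. Pp3s123_10 is the only gene among the first 6 whose genotypes do not overlap, with *Ppddm1* lower.

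The 6 genes with the highest mean level were Pp3s104_40, Pp3s128_40, Pp3s116_30, Pp3s123_10, Pp3s48_70 and Pp3s128_50, which come from 5 scaffolds. Pp3s104_40 had 210, 317 and 288 CPM in *Ppddm1* and 216, 223 and 224 CPM in wild type. It was the most abundant unplaced gene, yet 741 chromosomal genes were higher in wild type. Its log2 fold change was 0.27 ± 0.15 (SE, with edgeR giving an adjusted p = 0.378), and *Ppddm1* replicate 1 lay below wild type while the other 2 lay above. Without that library the log2 fold change was 0.42 (edgeR gave an adjusted p = 0.0371, under 2-fold), the lowest adjusted p of its alternatives, which reached 0.892.

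Pp3s128_40 had 199, 271 and 276 CPM in *Ppddm1* and 187, 214 and 201 CPM in wild type, and showed the same form, with replicate 1 of *Ppddm1* within the wild type range and the other 2 libraries above it. Its log2 fold change was 0.27 ± 0.14 (SE, with edgeR giving an adjusted p = 0.336), and 0.41 without *Ppddm1* replicate 1 (edgeR gave an adjusted p = 0.0474, under 2-fold, the lowest of its alternatives, which reached 0.91). Pp3s116_30 had 191, 223 and 238 CPM in *Ppddm1* and 199, 178 and 184 CPM in wild type. Its genotypes overlapped and its log2 fold change was 0.19 ± 0.13 (SE, with edgeR giving an adjusted p = 0.494).

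Pp3s123_10 was the only unplaced gene with an adjusted p under 0.05. It had 80.7, 132 and 138 CPM in *Ppddm1* and 197, 194 and 176 CPM in wild type. The genotypes did not overlap, with *Ppddm1* lower, and *Ppddm1* replicate 1 was the lowest. The means were 117 CPM in *Ppddm1* and 189 CPM in wild type, a log2 fold change of -0.72 ± 0.17 (SE, with edgeR giving an adjusted p = 0.03), which is short of 2-fold. The adjusted p stayed under 0.05 in 13 of 18 alternatives, from 0.00498 with DESeq2. The value was 0.0561 with batch in the model, 0.158 in batch 1 alone (log2 fold change -0.93), 0.0514 without *Ppddm1* replicate 2, 0.114 without wild type replicate 2 and 0.0933 without wild type replicate 3, while batch 2, with a single library per genotype, could not be tested.

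Pp3s48_70 and Pp3s128_50 were lower in level. Pp3s48_70 had 107, 103 and 108 CPM in *Ppddm1* and 97.7, 99.9 and 104 CPM in wild type. It differed least of the 6, with a log2 fold change of 0.04 ± 0.12 (SE, with edgeR giving an adjusted p = 0.905). Pp3s128_50 had 61.9, 70.4 and 66.5 CPM in *Ppddm1* and 101, 78.6 and 63.8 CPM in wild type, where replicate 1 was the highest. Its log2 fold change was -0.31 ± 0.16 (SE, with edgeR giving an adjusted p = 0.352). Pp3s48_50, on the same scaffold as Pp3s48_70, had 54.9, 56.0 and 52.4 CPM in *Ppddm1* and 52.1, 55.7 and 53.8 CPM in wild type. In the order of mean levels each of the 6 genes had libraries that overlapped those of its neighbour in the order.

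The scaffold of the Pp3s128 genes held the most counts of any and was the only scaffold with at least 5 tested genes. All 6 of its genes were detected and tested, and they held 22.6% of the unplaced counts. Its summed level was 328, 407 and 398 CPM in *Ppddm1* and 367, 358 and 328 CPM in wild type, with overlap. Its counts ran between 10 in all for Pp3s128_10 and 7426 for Pp3s128_40, without scaling for length. Of the 6 genes 2 had a positive and 4 a negative log2 fold change, between -0.46 and 0.27, and none was called.

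The other well-read genes of the scaffold did not share a direction. Pp3s128_20 had 17.3, 17.5 and 17.5 CPM in *Ppddm1* and 18.7, 11.2 and 13.8 CPM in wild type (log2 fold change 0.26, edgeR with adjusted p = 0.556). Pp3s128_30 had 11.7, 8.04 and 8.45 CPM in *Ppddm1* and 11.1, 11.2 and 10.9 CPM in wild type (log2 fold change -0.29, edgeR with adjusted p = 0.54). Pp3s128_60 had 37.4, 39.7 and 29.9 CPM in *Ppddm1* and 48.9, 42.4 and 37.7 CPM in wild type (log2 fold change -0.30, edgeR with adjusted p = 0.348). In each of these genes the libraries of the genotypes overlapped.

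**Figure D4:**
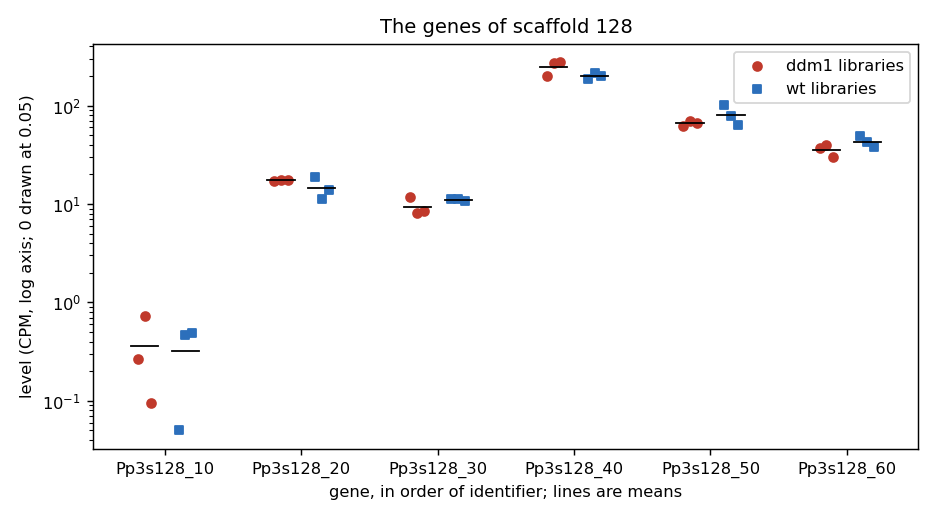
Level in CPM (log axis, 0 drawn at 0.05) of the 6 Pp3s128 genes in order of their identifiers, for *Ppddm1* libraries (circles) and wild type libraries (squares), with lines at the means. Pp3s128_40 is the highest gene and Pp3s128_10 the lowest, and the genotypes overlap in all 6 genes.

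The other 6 scaffolds with more than 1 tested gene had 2 each. On scaffolds 52 and 62 both genes had a positive log2 fold change and on scaffold 480 both had a negative one, while on scaffolds 48, 375 and 397 the signs differed. Scaffold 397 held the widest pair, with Pp3s397_10 at -0.34 and Pp3s397_40 at 1.42.

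The following genes were chosen after their values had been seen, as the largest or the most uneven differences. Pp3s397_40 had the lowest adjusted p among the 6 genes with a fitted change of 2-fold or more. It had 7.17, 3.17 and 4.56 CPM in *Ppddm1*, from 27, 13 and 48 counts, and 2.16, 1.64 and 1.64 CPM in wild type, from 6, 7 and 10 counts. All *Ppddm1* libraries lay above all wild type libraries. Its log2 fold change was 1.42 ± 0.40 (SE, with edgeR giving an adjusted p = 0.0578), just outside the threshold. Of 17 alternatives, 2 called it, among them the fit without a filter on low counts (log2 fold change 1.43, edgeR with adjusted p = 0.026, where 2.38% of features were called), and the highest adjusted p was 0.488 in batch 1 alone.

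Pp3s127_20 had the largest standard error of the 25 genes with at least 200 counts. It had 53.6, 29.7 and 43.7 CPM in *Ppddm1* and 51.7, 13.3 and 14.5 CPM in wild type. Wild type replicate 1 stood with the *Ppddm1* libraries, and the other 2 wild type libraries stood below all of them. Over the 6 libraries the log2 fold change was 0.75 ± 0.51 (SE, with edgeR giving an adjusted p = 0.527). Without wild type replicate 1 it was 1.58 and the gene was called (edgeR gave an adjusted p = 0.00121, the lowest of its alternatives, which reached 0.93), in a fit that called 3.52% of features. Replicate 1 was also the highest of the *Ppddm1* libraries. Pp3s1097_10 likewise rested on that library, with 5, 5 and 5 counts in *Ppddm1* and 20, 4 and 7 counts in wild type, where replicate 1 was the smallest library. Its log2 fold change of -1.56 (edgeR gave an adjusted p = 0.354) became -0.37 without wild type replicate 1 (edgeR with adjusted p = 0.826, while its other alternatives reached down to 0.13).

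**Figure D5:**
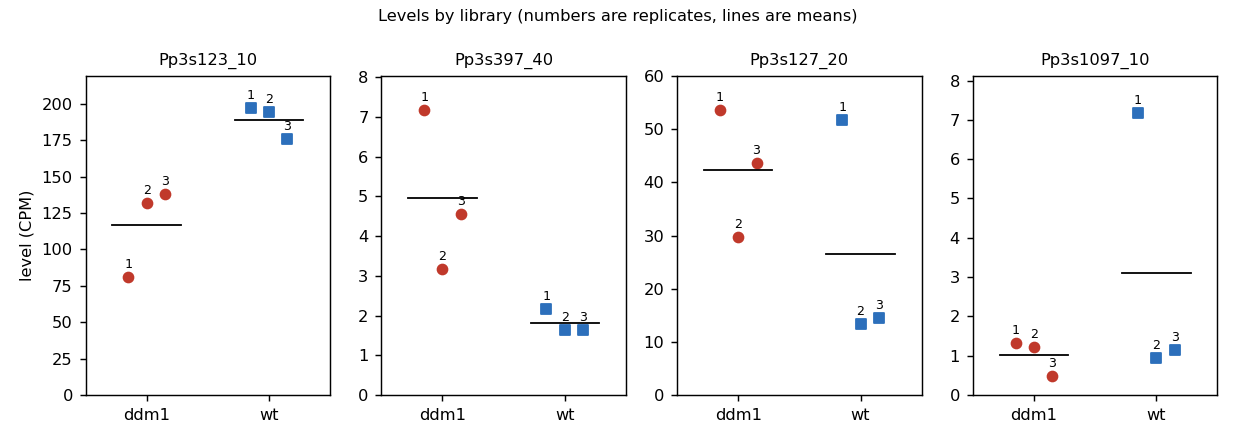
Level in CPM of 4 unplaced genes in each *Ppddm1* library (circles) and wild type library (squares), with the replicate number above each point and lines at the means. Pp3s123_10 and Pp3s397_40 do not overlap between genotypes, and wild type replicate 1 stands apart in Pp3s127_20 and Pp3s1097_10.

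The remaining tested genes without overlap had smaller changes or few reads. Pp3s76_130 had 21.8, 19.0 and 20.5 CPM in *Ppddm1* and 17.2, 11.9 and 13.8 CPM in wild type (log2 fold change 0.50, edgeR with adjusted p = 0.143). Pp3s318_30 had 31.3, 26.3 and 26.1 CPM in *Ppddm1* and 16.9, 23.4 and 19.7 CPM in wild type (log2 fold change 0.43, edgeR with adjusted p = 0.179). Pp3s121_40 had 54.4, 55.8 and 61.9 CPM in *Ppddm1*, against 46.3, 51.0 and 48.2 CPM in wild type. In Pp3s152_10 the values were 62.1, 59.2 and 55.9 CPM in *Ppddm1*, against 76.1, 67.9 and 64.2 CPM in wild type. None of these 4 genes passed the test.

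The other 2 tested genes without overlap had 15 and 17 counts in all. Pp3s350_10 reached the minimum of 10 counts through its 14 *Ppddm1* counts alone, and Pp3s85_40 through its 14 wild type counts alone. Both were also picked for their lack of overlap. The intervals below allow for neither the minimum nor this choice, so they are no evidence of a difference. Pp3s350_10 had 2, 3 and 9 counts in *Ppddm1* and 0, 1 and 0 counts in wild type. Pooled counts scaled by library size gave a ratio of *Ppddm1* over wild type of 9.99 (exact 95% interval 1.52 to 422, counting error only), with an adjusted p of 0.14 from edgeR. Its only wild type count was in replicate 2, and without that library wild type had 0 counts and no fold is given (edgeR with adjusted p = 0.143). The fitted log2 fold change was 2.94 over the 6 libraries and 2.20 without wild type replicate 3 (edgeR with adjusted p = 0.396). Pp3s85_40 had 0, 0 and 3 counts in *Ppddm1* and 1, 5 and 8 counts in wild type, a ratio of 0.153 (exact 95% interval 0.0282 to 0.548, counting error only) with an adjusted p of 0.105 from edgeR. Its 3 *Ppddm1* counts were all in replicate 3, and without that library *Ppddm1* had 0 counts and no fold is given (edgeR with adjusted p = 0.175). Neither passed the test, and over alternatives the adjusted p of edgeR and the other tools lay between 0.123 and 0.433 for Pp3s350_10 and between 0.066 and 0.342 for Pp3s85_40.

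The last 2 of the 6 genes with a fitted change of 2-fold or more overlapped between genotypes. Pp3s423_10 had 1, 2 and 17 counts in *Ppddm1* and 4, 9 and 18 counts in wild type (log2 fold change -1.16, edgeR with adjusted p = 0.274). Most of its *Ppddm1* counts were in replicate 3, without which the log2 fold change was -2.55 (edgeR with adjusted p = 0.105), and in batch 1 alone it was -2.21 (edgeR with adjusted p = 0.407). Pp3s52_140 had 2, 2 and 9 counts in *Ppddm1* and 1, 0 and 3 counts in wild type (log2 fold change 1.12, edgeR with adjusted p = 0.525). That value was 0.58 without wild type replicate 2 and 2.08 without wild type replicate 3 (edgeR with adjusted p = 0.774 and 0.494). Both rest on few reads and neither was called.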

How the data were processed

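PolyA RNA of 6 protonema libraries was sequenced as single-end reads. The authors deposited raw counts per gene and TE, with no normalization, after trimming (Trim Galore 0.6.0, cutadapt 1.15) and alignment to *P. patens* v3.3 (STAR 2.7.0f). Versions are from the submitters' processing notes. Reads with several matches were assigned at random. How reads were counted, and whether by strand, is not given in the sources used here.

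For CPM, each count was scaled by the sum of its library over all genes and TEs. Counts were fitted in edgeR 4.0.16 (R 4.3.3) with TMM factors, robust quasi-likelihood estimation and genotype as the only term, after a minimum of 10 counts over the 6 libraries. Each standard error (SE) is the absolute log2 fold change divided by the square root of the test's F statistic, and was not estimated separately. DESeq2 1.42.0 and limma-voom (limma 3.58.1) were alternatives, beside other scalings, filters, batch, a replicate term and each library left out. Wild type level classes were bounded at 0.5, 2, 8 and 32 CPM and at 4 times the last of these. Each chromosomal gene was weighted by the number of unplaced genes in its class over the number of chromosomal genes there. Shares and medians at matched level were taken with these weights. All pairs of libraries of 1 genotype differed by more than sampling noise. None of the 658 unplaced identifiers is in the RefSeq table used here, and none of the chromosomal identifiers is either. The text names PpDDM1 and the 6 most abundant unplaced genes by rule. The rule also took every unplaced gene called, of which there was none, and others were chosen after their values were seen. The genes and tests were chosen with earlier results of these data known. Figures were drawn with matplotlib 3.10.9.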

Additional observations from a re-analysis of the deposited data

How the results depend on the processing

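The number of unplaced genes called lower was 0 under all 18 alternatives run. The number called higher was 0 in the fit reported and 1 without a filter on low counts and with the replicate block (Pp3s397_40 both times), and it ranged between 0 and 1 when single libraries were left out (Pp3s127_20, without wild type replicate 1). With the replicate block the log2 value of Pp3s397_40 was 1.38 (edgeR with adjusted p = 0.0274), and 735 features were called in place of 651. Deviations from the genotype means correlated at 0.339, 0.28 and -0.0201 between libraries of the same number. *Ppddm1* replicate 3 did not correlate best with its own number, so the libraries were not taken as pairs. *Ppddm1* replicate 1 correlated at -0.275 and -0.216 with wild type replicates 2 and 3. *Ppddm1* replicate 2 correlated at -0.375 with wild type replicate 1 and at 0.263 with wild type replicate 3, which is in the other batch. The values of *Ppddm1* replicate 3 all lay between -0.0201 and 0.0473. Whether this bears on the genes in which a replicate 1 stood apart was not tested. The genes tested numbered 64 without the filter and 27 with at least 10 counts required in every library, and 38 to 41 with a library left out. Their median log2 fold change lay between -0.06 and 0.03 with a library left out. The summed ratio lay between 1.02 and 1.09 with a library left out. The older quasi-likelihood fit of edgeR, added after seeing the data, called none of the 42 genes. Detection gave 55 genes at 2 or more counts and an expected 60.4 after thinning. Depth limits the 17 tested genes under 200 counts and the 22 untested ones most.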
